A study of Homo sapiens with 6 samples.

Results

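The genes described here are 42 members of the ATF4 stress response, 42 of the 20824 genes in the expression table. They comprise 7 transcription factors of the response, 7 stress effectors and negative regulators, 8 enzymes of amino acid and one-carbon synthesis, 7 amino acid transporters, 12 cytosolic aminoacyl-tRNA synthetases and the tRNA exporter XPOT. The members were chosen by gene symbol with the fall of GDF15 and AARS in these libraries already known, so the comparisons of each isoform with the empty vector are given as a description, without p-values. All 42 were found, and all 42 had the mean of at least 0.5 RPKM, a read number corrected for the length of the transcript and the size of the library, that was needed for a gene to be fitted.

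RNA-Seq was performed on 21NT, an established human breast cell line used as a model of ductal carcinoma in situ. The cells were stably transfected with pcDNA3.1 carrying no insert (EV), TBX3iso1 or TBX3iso2. TBX3 is a T-box transcription factor, and TBX3iso2 carries an additional stretch of residues in its DNA-binding domain that TBX3iso1 lacks. The 3 lines gave 2 libraries each, a total of 6. Resistant clones of a line were pooled and expanded under G418, so EV cells also carried the vector and the selection agent, and no untransfected cells were sequenced. According to the labels all lines grew in 1 mM glutamine, for which the study's methods give another concentration, and 0.1 mM nonessential amino acids, with 1 mM pyruvate, 10% serum, insulin, EGF and hydrocortisone, and RNA was taken at 80% confluence. The labels name no stress treatment or amino acid withdrawal. The labels do not say that the libraries of a line came from separate cultures, so the spread between them may be technical.

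When amino acids run short, proteins misfold in the endoplasmic reticulum or haem is lacking, kinases phosphorylate the translation initiation factor eIF2α. General translation then slows while translation of the ATF4 message increases, so ATF4 protein can change without a change in its transcript. ATF4 binds as a heterodimer with C/EBP family members to composite C/EBP-ATF elements, and its known targets include genes for amino acid synthesis and import, tRNA charging, redox balance and, under prolonged stress, growth arrest and cell death. Cytosolic aminoacyl-tRNA synthetases join each amino acid to its tRNA, and many of their genes are known ATF4 targets.

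In this study TBX3 transcript served as the check of the labels and was 8.38 ± 0.199 RPKM (mean ± SD, n = 2) in EV, 12.3 ± 1.23 in TBX3iso1 and 16.5 ± 1.41 in TBX3iso2, without overlap between the lines. The log2 fold change of TBX3 against EV was 0.54 ± 0.10 (± SE) in TBX3iso1 and 0.97 ± 0.10 in TBX3iso2, and a gene-level value does not separate the isoforms. In TBX3iso1 that is 1.45-fold, short of the 1.5-fold threshold used below, and in TBX3iso2 it is 1.96-fold. The libraries held 43176600 to 54512400 alignments, which puts 1 RPKM at 43.2 to 54.5 alignments per kilobase of transcript. Summed mammary epithelial markers were 2672 to 2766 RPKM in EV, 2102 to 2289 in TBX3iso1 and 2349 to 2591 in TBX3iso2, so the isoform lines lay below EV. Among them CDH1 was 145 ± 4.22, 89.2 ± 6.78 and 102 ± 12.3 RPKM in the same order, and ERBB2 was 434 ± 14.8, 298 ± 2.32 and 258 ± 2.69. KRT19 was also lower, at 680 ± 24.3, 459 ± 30.3 and 414 ± 37.9. KRT8, KRT18 and EPCAM had higher means in TBX3iso2, at 728, 747 and 221 RPKM, than in EV, at 671, 604 and 184. In TBX3iso1 their means were 567, 610 and 171. All 6 epithelial markers were expressed. CDH5 and VWF of the endothelial list and PTPRC and CD3E of the immune list were at or near 0 in every library, but PECAM1, CD68 and CD14 were not. The summed endothelial list was 7.37 to 7.73 RPKM in EV and 1.26 to 1.46 with either isoform, nearly all of it PECAM1. The immune list was 52.6 to 54.8 RPKM in EV and 36.2 to 36.8 with either isoform, from CD68 and CD14. The fibroblast list was 4.60 to 4.86 RPKM in EV, 8.12 to 8.69 in TBX3iso1 and 7.14 to 7.58 in TBX3iso2, nearly all COL1A1, and 1 of its 6 genes reached a mean of 0.5 RPKM. The part of these markers in the member results was not tested, and in bulk RNA fewer cells of a kind and less transcript per cell cannot be told apart.

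A sequence that many of these genes share is shown first. The members were chosen as known targets of ATF4 and CHOP, a class defined in part through this element, so its frequency among them is a description of the choice. RefSeq promoter windows of 300 bases on GRCh38.p14 (250 before an annotated start site and 50 after it) were searched on both strands for the core of the composite C/EBP-ATF element, TGATGNAA, which reads TTNCATCA on the opposite strand. Of the 42 members, 34 matched the promoter table, and 15 of these (44.1%) held the core near at least 1 of their start sites, against 1217 of 27305 genes (4.46%) in the whole table. Counted by start site, 15 of 54 member sites (27.8%) held it, against 3.62% of 35116. A match is a description of letters and not evidence of binding. Among the 12 synthetases, 10 matched the table and 7 held the core. Their windows are printed 5′ to 3′ on the transcribed strand, with the core in capitals, beside those of ATF3, CHAC1 and ASNS as examples of a factor, an effector and a synthesis gene.
CARS (chr11:3057410-3057433, minus strand): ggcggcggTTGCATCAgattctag
GARS (chr7:30594837-30594860, plus strand): cgcggcgaTTTCATCAtgctccga
IARS (chr9:92293695-92293718, minus strand): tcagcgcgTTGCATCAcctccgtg
MARS (chr12:57488056-57488079, plus strand): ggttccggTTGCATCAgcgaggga
NARS (chr18:57621807-57621830, minus strand): acgctctcTGATGCAAcgccggaa
TARS (chr5:33440959-33440982, plus strand): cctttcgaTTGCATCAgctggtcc
AARS (chr16:70289678-70289701, minus strand): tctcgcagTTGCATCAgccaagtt
ATF3 (chr1:212565208-212565231, plus strand): ggtcaggaTGATGGAAggctgtca
CHAC1 (chr15:40953254-40953277, plus strand): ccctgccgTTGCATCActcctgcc
ASNS (chr7:97872461-97872484, minus strand): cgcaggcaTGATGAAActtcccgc
The core of CARS began at -2 relative to the start site, that of MARS at -4, that of IARS at -13 and that of GARS at -33. In NARS and TARS it lay just after the start, at 15 and 3. In AARS it lay farther upstream, at -187, and in ATF3, ASNS and CHAC1 at -191, -68 and -209. The other members with the core were CEBPG, SLC3A2, SLC7A1, SLC1A4 and SLC1A5.

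GDF15 and AARS, the genes known to have fallen when the members were chosen, differed in this sequence. The 250 bases before their start sites are shown for that reason, again with the core in capitals. No match was found in the GDF15 window, which says only that these letters are not in it.
GDF15 (chr19:18385908-18386157, plus strand): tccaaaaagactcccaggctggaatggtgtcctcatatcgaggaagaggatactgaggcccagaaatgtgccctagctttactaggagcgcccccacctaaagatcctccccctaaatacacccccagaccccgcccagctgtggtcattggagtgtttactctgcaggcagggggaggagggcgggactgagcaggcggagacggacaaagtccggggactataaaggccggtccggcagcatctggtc
AARS (chr16:70289507-70289756, minus strand): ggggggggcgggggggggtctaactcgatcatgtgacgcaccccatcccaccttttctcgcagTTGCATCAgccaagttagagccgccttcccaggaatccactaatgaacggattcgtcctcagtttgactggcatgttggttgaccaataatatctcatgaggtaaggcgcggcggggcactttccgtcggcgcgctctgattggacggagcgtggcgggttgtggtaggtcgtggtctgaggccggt

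Across the members, expression was lower more often than higher with either isoform, and the synthetases held the fewest calls. A gene was called when its adjusted p was under 0.05 and its fold change over 1.5 in the fit over the 12805 genes that reached the minimum of 0.5 RPKM. With TBX3iso1, 15 of the 42 members were called against EV, 12 lower and 3 higher. Of all genes tested 21.5% were called in that comparison, 14.1% lower and 7.46% higher, and the members were chosen with it known. With TBX3iso2, 12 members were called against EV, 8 lower and 4 higher, against 21.2% of all genes, 12.3% lower and 8.94% higher. The members had a median log2 difference from EV of -0.19 in TBX3iso1 and -0.15 in TBX3iso2, and all genes tested had -0.05 and -0.00206. The split of all calls in the TBX3iso1 comparison depended on scaling, with 955 higher and 1802 lower as deposited but 1263 higher and 1445 lower under median-ratio scaling and 1274 and 1297 under quantile normalization. With TBX3iso2 the split was 1145 higher and 1575 lower as deposited, 1276 and 1456 under median-ratio scaling and 1333 and 1322 under quantile normalization.

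Both comparisons use the same EV libraries, so a gene that is unusual in EV moves in both. Of the 42 members, 10 were called with both isoforms, 8 lower and 2 higher, 5 were called with TBX3iso1 alone and 2 with TBX3iso2 alone. Of all 12805 genes tested 14% were called with both, 8.97% lower with both and 4.77% higher with both, while 7.58% were called with TBX3iso1 alone and 7.29% with TBX3iso2 alone. The other 25 were called in none of the comparisons. Being called in only 1 of the comparisons does not show that the isoforms differ, which was tested directly and is given after the gene groups.

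**Figure D1:**
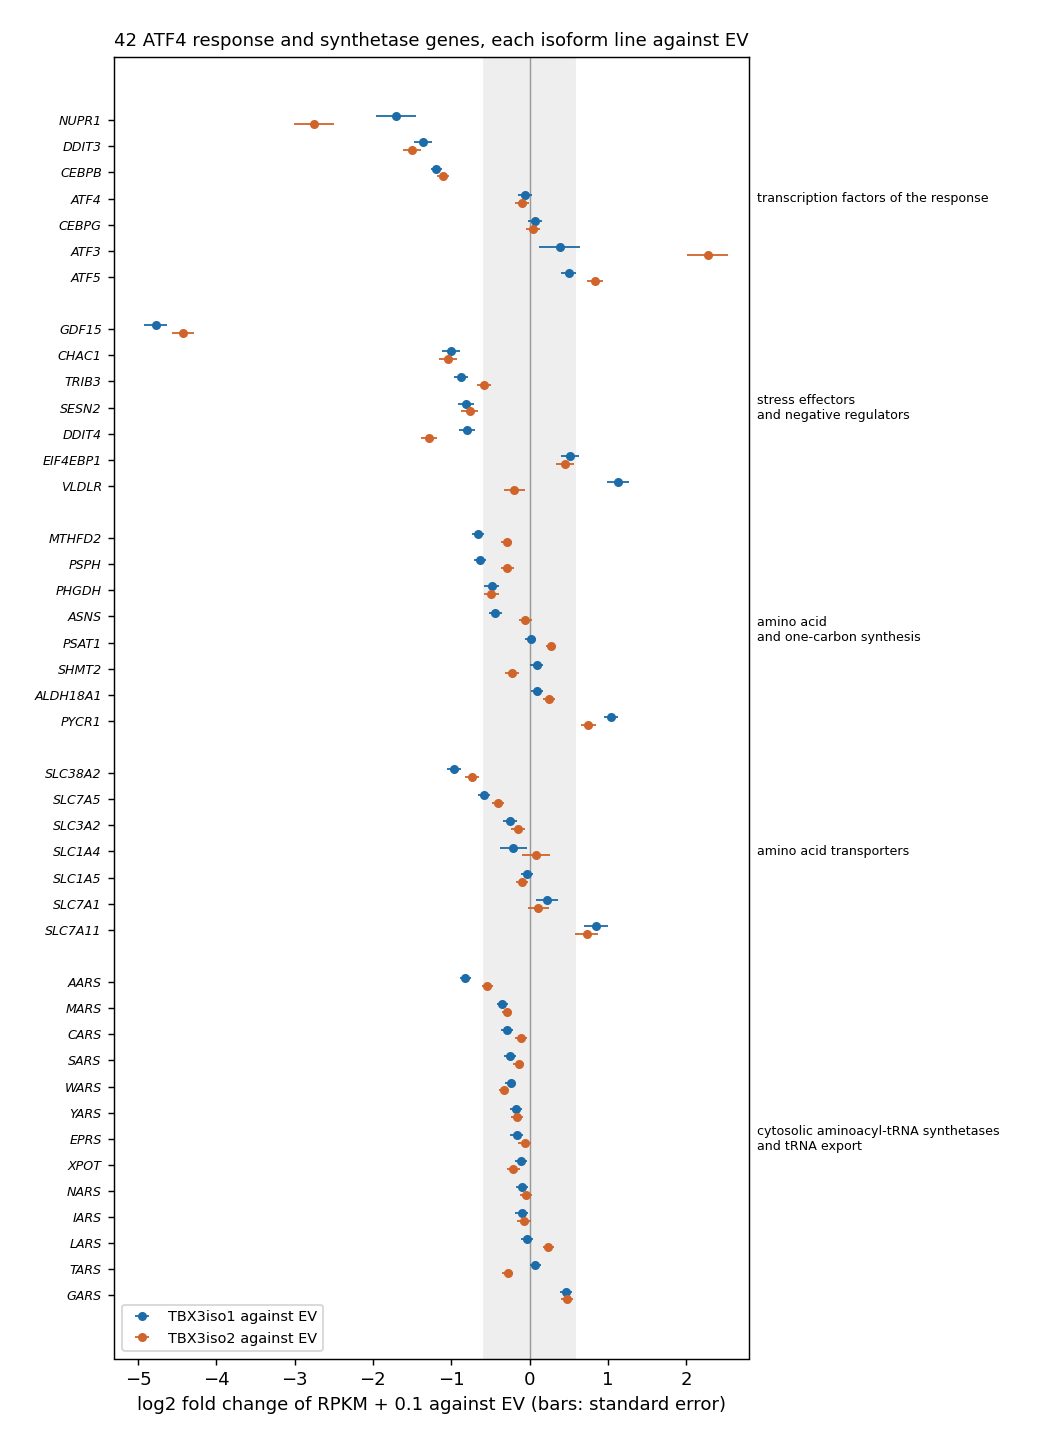
Log2 fold change of RPKM + 0.1 against EV for each of the 42 genes (points, bars are the standard error of the fit), grouped by role, for TBX3iso1 (blue) and TBX3iso2 (orange); the grey band spans a 1.5-fold change either way. GDF15 stands far to the left at -4.77 and -4.43, while 12 of the 13 genes of tRNA charging and export lie inside the band with both isoforms.

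ATF4 itself was not called at the transcript level, while several of its partner and downstream factors were. ATF4 (chr22:39915700-39918688 on GRCh37) was measured at 96.3 and 101 RPKM in EV, 88.6 and 101 in TBX3iso1 and 89.2 and 95.3 in TBX3iso2. The libraries of EV and TBX3iso1 overlapped, and the log2 fold changes were -0.06 ± 0.09 (± SE) with TBX3iso1 and -0.10 ± 0.09 with TBX3iso2. GENCODE lists 4 pseudogenes named after ATF4, to which the aligner could have placed some of its reads. CEBPG, a C/EBP family partner of ATF4, was not called either, at 9.95 ± 0.644 RPKM (mean ± SD, n = 2) in EV, 10.5 ± 0.723 in TBX3iso1 and 10.2 ± 0.50 in TBX3iso2.

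DDIT3, which encodes the pro-apoptotic factor CHOP, was 44.7 and 55.3 RPKM in EV, 18.03 and 20.7 in TBX3iso1 and 17.1 and 18.04 in TBX3iso2. Both isoform lines lay below EV and overlapped each other. On the log2 scale TBX3iso1 differed from EV by -1.36 ± 0.12, and the EV mean was 2.85 times that of TBX3iso2. DDIT3 (chr12:57910371-57915520, minus strand) shares 355 exon bases with the opposite-strand gene MARS, and it is not stated whether counting used strand. MARS differed far less, by -0.35 and -0.29.

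CEBPB, another C/EBP family factor and a known partner of ATF4, was 105 and 104 RPKM in EV, 46.8 and 45.0 in TBX3iso1 and 46.6 and 50.6 in TBX3iso2. Its EV level was 2.28 times that of TBX3iso1 and 2.16 times that of TBX3iso2, with little spread in any line. NUPR1, a small stress-induced chromatin protein, was 3.32 and 2.89 RPKM in EV, 0.698 and 1.11 in TBX3iso1 and 0.480 and 0.286 in TBX3iso2. The 3 lines did not overlap, in the order EV, TBX3iso1, TBX3iso2. On the log2 scale TBX3iso1 differed from EV by -1.71 ± 0.26 and TBX3iso2 by -2.76 ± 0.26. NUPR1 had the widest replicate gap of any member in TBX3iso1, 0.59 on the log2 scale, and shares 909 exon bases with an unnamed long noncoding RNA on the same strand.

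A pair of factors moved the other way. ATF3, a repressor induced by many stresses, was 1.97 and 2.17 RPKM in EV, 2.64 and 2.84 in TBX3iso1 and 14.5 and 7.46 in TBX3iso2. The TBX3iso2 libraries lay above all others but differed from each other by 0.95 on the log2 scale, the widest gap between replicates of any member in that line. Its log2 fold change was 0.39 ± 0.26 with TBX3iso1, which was not called, and 2.28 ± 0.26 with TBX3iso2, which was. ATF5, a relative of ATF4 that is also regulated by translation, was 13.3 and 11.1 RPKM in EV, 17.1 and 17.3 in TBX3iso1 and 20.7 and 22.7 in TBX3iso2. The lines did not overlap, and the log2 fold change was 0.50 ± 0.10 with TBX3iso1, not called, and 0.83 ± 0.10 with TBX3iso2, called. ATF5 shares 565 exon bases with NUP62 on the opposite strand.

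Summed over the 7 factors, expression was 281 ± 9.33 RPKM in EV, 191 ± 10.4 in TBX3iso1 and 202 ± 4.62 in TBX3iso2. The sum is carried mostly by ATF4, CEBPB and DDIT3. Of the 7, 3 were called lower and none higher with TBX3iso1, and 3 lower and 2 higher with TBX3iso2. Over all genes tested the shares were 14.1% lower and 7.46% higher with TBX3iso1, and 12.3% and 8.94% with TBX3iso2.

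Of the 7 stress effectors and negative regulators, 5 were called lower and 1 higher with TBX3iso1, and 4 lower with TBX3iso2. Of all genes tested 14.1% were called lower and 7.46% higher with TBX3iso1, and 12.3% and 8.94% with TBX3iso2. The fall of GDF15, known when the members were chosen, was the largest in the group. GDF15, a secreted cytokine of the TGF-β superfamily that is raised in many stressed tissues, was 72.6 and 84.0 RPKM in EV, 2.57 and 2.96 in TBX3iso1 and 3.08 and 4.06 in TBX3iso2. Every isoform library lay far below both EV libraries. The EV mean was 28.3 times that of TBX3iso1 and 21.9 times that of TBX3iso2, and the log2 fold changes were -4.77 ± 0.14 and -4.43 ± 0.14. Ranked from the largest fall among the 12805 genes, GDF15 came at place 5 with TBX3iso1 and at place 7 with TBX3iso2. GDF15 lies at chr19:18485541-18499986 on the plus strand of GRCh37, and it ranked at percentile 94.2 of the genes tested by its level in EV.

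DDIT4 (REDD1), an inhibitor of the growth kinase complex mTORC1, was the most abundant of the 42 in EV. It was 363 and 371 RPKM in EV, 207 and 214 in TBX3iso1 and 139 and 163 in TBX3iso2. The lines did not overlap, with TBX3iso2 lowest, and the log2 fold changes were -0.80 ± 0.10 and -1.28 ± 0.10. SESN2, a sestrin that also restrains mTORC1, was 3.73 and 3.71 RPKM in EV, 2.14 and 2.03 in TBX3iso1 and 2.12 and 2.17 in TBX3iso2. The isoform lines overlapped each other and lay below EV, with log2 fold changes of -0.81 ± 0.10 and -0.77 ± 0.10.

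CHAC1, which degrades glutathione and is a known target of both ATF4 and CHOP, was 3.26 and 3.11 RPKM in EV, 1.62 and 1.47 in TBX3iso1 and 1.47 and 1.53 in TBX3iso2. The EV mean was 2.06 times that of TBX3iso1 and 2.13 times that of TBX3iso2. TRIB3, a pseudokinase that feeds back on ATF4 and CHOP, was 25.2 and 27.5 RPKM in EV, 14.2 and 14.6 in TBX3iso1 and 16.4 and 18.9 in TBX3iso2. Both isoform lines lay below EV, but the gene passed the fold threshold only with TBX3iso1, at -0.87 ± 0.09, and not with TBX3iso2, at -0.58 ± 0.09. It passed with TBX3iso2 too without EV replicate 1, at -0.65, and without TBX3iso2 replicate 2, at -0.68.

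VLDLR, the very low density lipoprotein receptor, was the only member of the group called higher, and only with TBX3iso1. It was 1.31 and 1.12 RPKM in EV, 2.75 and 2.78 in TBX3iso1 and 0.970 and 1.13 in TBX3iso2. TBX3iso1 lay above both other lines, which overlapped. The log2 fold change was 1.13 ± 0.14 with TBX3iso1, called higher, and -0.19 ± 0.14 with TBX3iso2, not called. VLDLR shares 260 exon bases with VLDLR-AS1 on the opposite strand. EIF4EBP1, the 4E-BP1 repressor of cap-dependent translation, lay between 37.9 and 38.8 RPKM in EV and between 48.0 and 60.05 across the isoform libraries. All isoform libraries were above EV, but at 0.51 ± 0.12 and 0.45 ± 0.12 it missed the fold threshold.

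**Figure D2:**
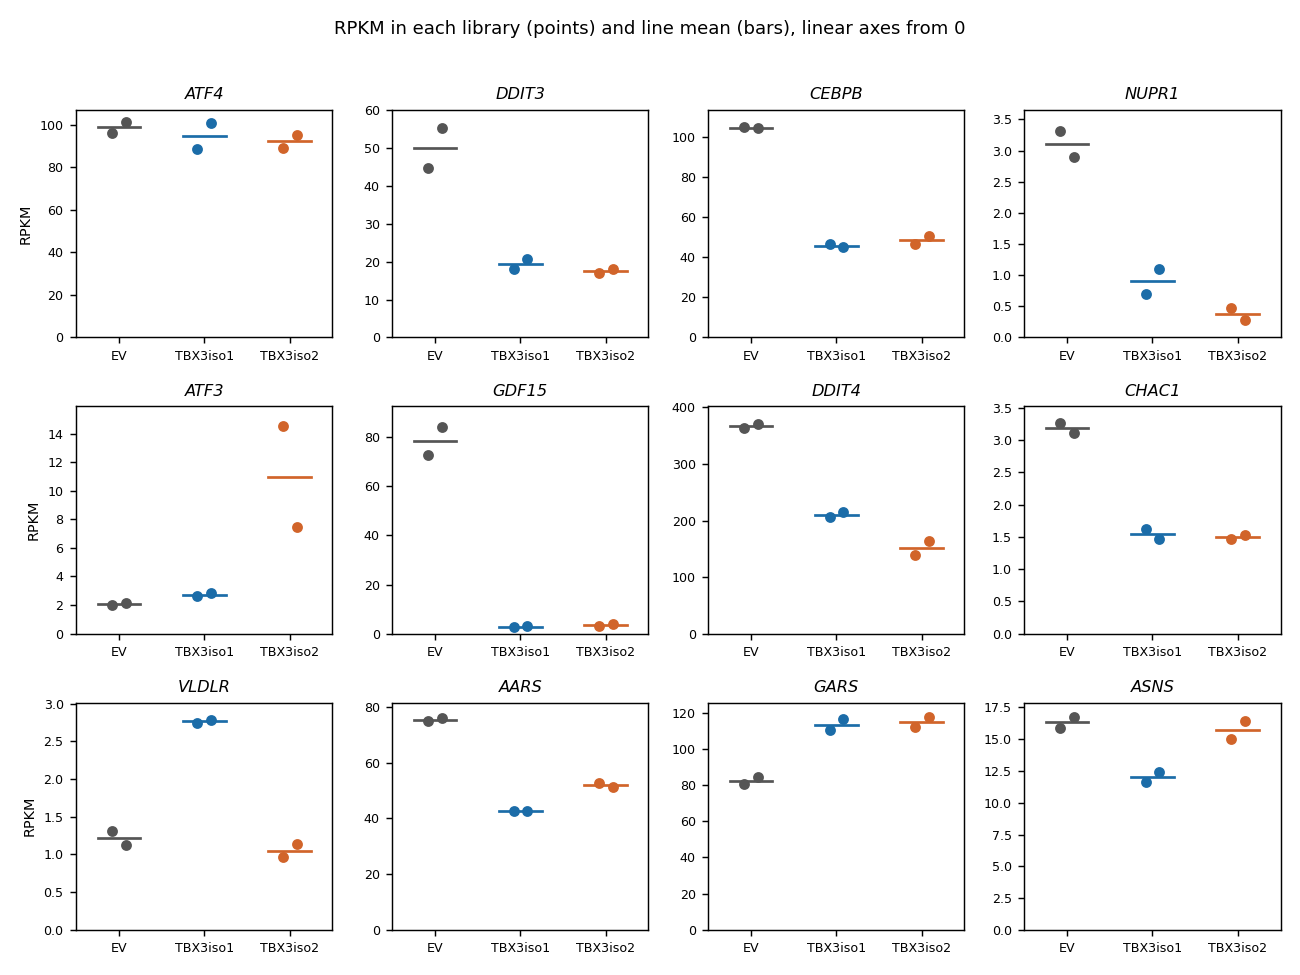
RPKM in each library (points) with the mean of the line (bars) for 12 of the 42 genes, each on its own linear axis from 0, with EV in grey, TBX3iso1 in blue and TBX3iso2 in orange. ATF4 lies between 88.6 and 101 RPKM in every library, while GDF15, DDIT3 and CEBPB are lower in all 4 isoform libraries, ATF3 is high in TBX3iso2 and VLDLR in TBX3iso1.

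Enzymes of amino acid and one-carbon synthesis moved less, and not all one way. ASNS, which makes asparagine and is among the best known ATF4 targets, was 15.9 and 16.8 RPKM in EV, 11.7 and 12.4 in TBX3iso1 and 15.003 and 16.5 in TBX3iso2. TBX3iso1 lay below EV and TBX3iso2 overlapped EV, and neither difference passed the fold threshold, at -0.44 ± 0.08 and -0.05 ± 0.08. GENCODE names 5 pseudogenes after ASNS, and the gene shares 2415 exon bases with a long noncoding RNA on the same strand.

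Serine is made from a glycolytic intermediate by PHGDH, PSAT1 and PSPH in turn, and these enzymes did not move together. PSPH, the last of them, was 11.04 and 10.7 RPKM in EV, 7.02 and 6.99 in TBX3iso1 and 8.58 and 9.29 in TBX3iso2. The lines did not overlap, and PSPH was called lower with TBX3iso1, at -0.63 ± 0.08, but not with TBX3iso2, at -0.28 ± 0.08. Its call with TBX3iso1 was lost with 1 RPKM added in place of 0.1, at -0.57, and under both other scalings, at -0.55. PHGDH, the first enzyme, was 57.4 and 56.3 RPKM in EV and between 37.2 and 44.1 in the isoform libraries. That is a log2 difference of -0.48 ± 0.10 with TBX3iso1 and -0.49 ± 0.10 with TBX3iso2, short of the fold threshold in both. PSAT1, the second, ran from 23.4 to 24.3 RPKM in EV and TBX3iso1 and was 28.9 and 28.4 in TBX3iso2.

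In mitochondria SHMT2 and MTHFD2 carry one-carbon units from serine into the folate cycle. MTHFD2 was 93.1 and 95.4 RPKM in EV, 57.3 and 62.3 in TBX3iso1 and 76.4 and 77.5 in TBX3iso2. The lines did not overlap, and MTHFD2 was called lower with TBX3iso1, at -0.66 ± 0.08, but not with TBX3iso2, at -0.29 ± 0.08. Its call was lost under median-ratio scaling, at -0.57, GENCODE names 7 pseudogenes after it, and it shares 1324 exon bases with SLC4A5 on the opposite strand. SHMT2 was not called, at 0.09 ± 0.09 with TBX3iso1 and -0.23 ± 0.09 with TBX3iso2.

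PYCR1, which makes proline in mitochondria, was the only gene of the group called higher. It was 4.22 and 3.79 RPKM in EV, 8.26 and 8.42 in TBX3iso1 and 6.55 and 7.07 in TBX3iso2. All 4 isoform libraries lay above EV, with log2 fold changes of 1.04 ± 0.09 and 0.75 ± 0.09, both called. PYCR1 shares 408 exon bases with MYADML2 on the same strand, so reads could have been split between them. ALDH18A1, which acts just before PYCR1, was 17.9 and 16.8 RPKM in EV and between 18.1 and 20.8 with the isoforms and was not called.

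Amino acid transporters also split. SLC38A2 (SNAT2), a sodium-coupled importer of neutral amino acids, was 108 RPKM in both EV libraries, 56.9 and 54.2 in TBX3iso1 and 69.8 and 60.02 in TBX3iso2. All isoform libraries lay below EV, and it was called lower with both, at -0.96 ± 0.09 and -0.74 ± 0.09. SLC7A11 (xCT), the cystine and glutamate exchanger, was higher. It was 1.52 and 1.59 RPKM in EV, 3.11 and 2.66 in TBX3iso1 and 2.98 and 2.34 in TBX3iso2, with log2 fold changes of 0.85 ± 0.15 and 0.73 ± 0.15. SLC7A11 shares 865 exon bases with SLC7A11-AS1 on the opposite strand. Its call with TBX3iso2 was lost without TBX3iso2 replicate 1, at 0.56, and with 1 RPKM added, at 0.51.

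Of the other 5 transporters, none was called. SLC7A5 (LAT1), which imports large neutral amino acids as a heterodimer with SLC3A2, had the largest difference among them. It was 206 and 197 RPKM in EV, 139 and 130.3 in TBX3iso1 and 154 and 151 in TBX3iso2, at -0.58 ± 0.08 with TBX3iso1, just short of the fold threshold, and -0.40 ± 0.08 with TBX3iso2. SLC3A2, SLC7A1, SLC1A4 and SLC1A5 lay between -0.25 and 0.23 in both comparisons. SLC1A4 had the lowest mean of the 42 over all libraries, at 0.441 to 0.606 RPKM, close to the minimum for a gene to be fitted. The 7 transporters summed to 523 ± 10.8 RPKM in EV, 387 ± 3.33 in TBX3iso1 and 416 ± 1.30 in TBX3iso2.

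Cytosolic aminoacyl-tRNA synthetases and XPOT had the narrowest range of fold changes of the groups, with AARS and GARS at opposite ends. AARS, which charges alanine tRNA, was 74.8 and 75.9 RPKM in EV, 42.7 in both TBX3iso1 libraries and 52.5 and 51.3 in TBX3iso2. The lines did not overlap, and TBX3iso1 was lowest. AARS was called lower with TBX3iso1, at -0.82 ± 0.07, and at -0.54 ± 0.07 with TBX3iso2 it missed the fold threshold. Its gene spans chr16:70285886-70323610 on the minus strand of GRCh37. GARS, which charges glycine tRNA, was 80.3 and 84.2 RPKM in EV, 110.3 and 116 in TBX3iso1 and 112 and 118 in TBX3iso2. All isoform libraries lay above EV, at 0.46 ± 0.08 and 0.48 ± 0.08, under the fold threshold in both.

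The other 10 synthetases lay between -0.35 (MARS, methionine) and 0.07 (TARS, threonine) with TBX3iso1 and between -0.32 (WARS, tryptophan) and 0.24 (LARS, leucine) with TBX3iso2. Of the 12, 10 were below 0 in either comparison, with medians of -0.17 and -0.12. Their sum was 620 ± 8.79 RPKM in EV, 571 ± 1.59 in TBX3iso1 and 580 ± 6.74 in TBX3iso2. XPOT, which exports tRNA from the nucleus, was 33.1 and 33.8 RPKM in EV and between 27.6 and 32.0 with the isoforms, not called. Among the 13 genes of the group 1 was called with TBX3iso1 and 0 with TBX3iso2, beside 21.5% and 21.2% of all genes tested. By limma 6 had an adjusted p under 0.05 in each when the fold was left aside. At an unadjusted p under 0.05 there were 6 and 7. These counts include AARS, and the share of all genes at these looser thresholds was not counted. They are a description only.

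Of the 8 cytosolic synthetases outside the members, none was called with TBX3iso1 and 2 were called with TBX3iso2, both higher. Of all genes tested 21.5% and 21.2% were called in these comparisons, 7.46% and 8.94% higher. Their median log2 difference from EV was 0.27 in TBX3iso1 and 0.41 in TBX3iso2, and 6 of the 8 were above 0 in each comparison. QARS, the glutamine enzyme, was below 0 in both, at -0.28 and -0.20. FARSB, a subunit of the phenylalanine enzyme, was 27.5 and 29.7 RPKM in EV, 41.1 and 44.6 in TBX3iso1 and 49.2 and 51.2 in TBX3iso2. It was called higher with TBX3iso2, at 0.81 ± 0.08, and HARS, the histidine enzyme, was also called there, at 0.60 ± 0.09. AIMP2, a scaffold protein of the multisynthetase complex, was called higher with TBX3iso1, at 0.62 ± 0.09. Over all 20 cytosolic synthetases the median was -0.10 and -0.05. Of the 17 mitochondrial synthetases, which are separate genes for all but a few amino acids, YARS2 was called higher with TBX3iso1 at 0.80 ± 0.10 and MARS2 with TBX3iso2 at 0.69 ± 0.12, and none was called lower. That is 5.88% called higher in each comparison, near the 7.46% and 8.94% of all genes. The 17 had medians of 0.07 and 0.00549.

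**Figure D3:**
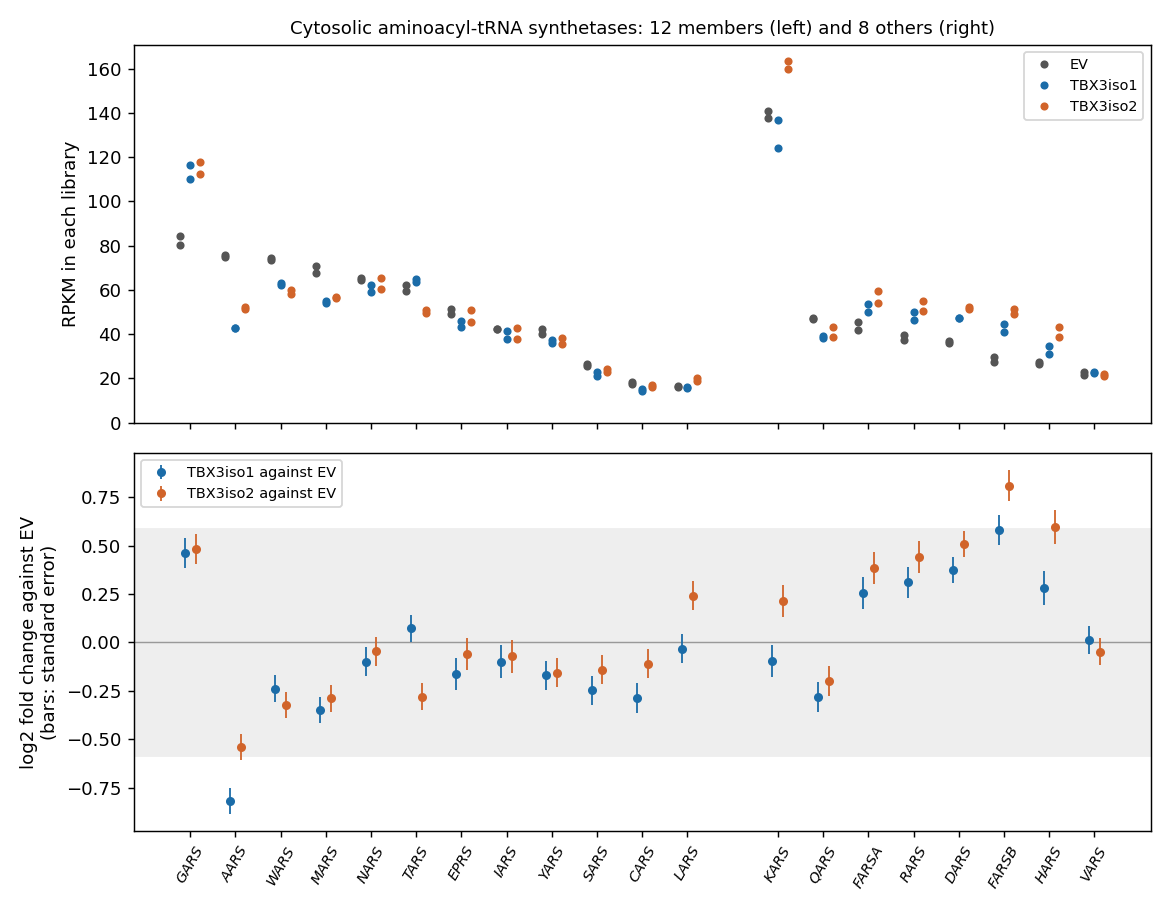
Above, RPKM in each library for the 12 member synthetases (left, ordered by level in EV) and the 8 other cytosolic synthetases (right); below, their log2 fold change against EV with the standard error, where the grey band spans a 1.5-fold change. AARS alone lies below the band with TBX3iso1, at -0.82, and FARSB and HARS lie above it with TBX3iso2.

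Members with and without the C/EBP-ATF core in their promoter windows are given side by side. The 15 members with the core had medians of -0.10 (TBX3iso1) and -0.07 (TBX3iso2) on the log2 scale, and 2 were called in each comparison, AARS and CHAC1 with TBX3iso1 and ATF3 and CHAC1 with TBX3iso2. The 19 members in the promoter table without it had medians of -0.48 and -0.32, with 9 and 7 called. Being without the core means only that no exact match lay in the windows, and sequence outside them was not searched. Of all genes tested 21.5% and 21.2% were called in these comparisons. The classes also differ in role, as 7 of the 15 members with the core are synthetases. Those without the core included GDF15, DDIT3, CEBPB, DDIT4, TRIB3, SESN2, SLC38A2 and MTHFD2. These are counts over genes chosen with the comparisons known and were not tested. NUPR1, EIF4EBP1, PSPH, SHMT2, PYCR1, SLC7A11, LARS and YARS were not in the table.

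**Figure D4:**
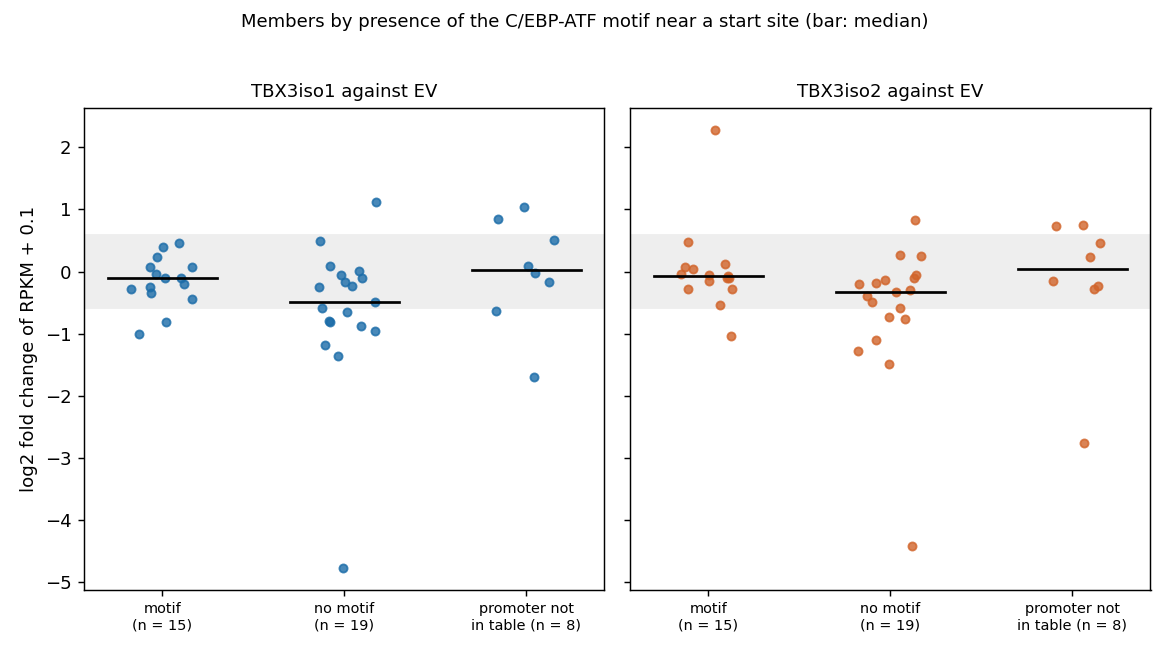
Log2 fold change of RPKM + 0.1 against EV for the members with the C/EBP-ATF core near a start site (n = 15), those in the promoter table without it (n = 19) and those not in the table (n = 8), for TBX3iso1 (left) and TBX3iso2 (right); bars are medians, the grey band spans a 1.5-fold change and horizontal scatter within a class has no meaning. The members with the core sit nearer 0, with medians of -0.10 and -0.07, than those without it, at -0.48 and -0.32. Absence of the core refers to the 300-base windows alone.

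TBX3iso2 was then compared with TBX3iso1, the contrast that the choice of members did not use. Its question is whether these genes differed between the isoform lines. The lines also differed in TBX3 transcript, by 0.43 ± 0.10 on the log2 scale, and each isoform was carried by 1 pooled line, so isoform, dose and line cannot be told apart. Of the 42 members 3 were called (7.14%), 1 higher and 2 lower in TBX3iso2, against 6.29% of all genes tested, 3.47% higher and 2.82% lower. The share of members called was close to that of all genes. All calls in this comparison, 444 higher and 361 lower, became 352 and 440 under median-ratio scaling and 347 and 434 under quantile normalization. The median log2 difference of the members was 0.05, as was that of all genes tested. Adjusted p-values here are from limma with Benjamini-Hochberg adjustment over the 12805 genes. The fall of GDF15 and AARS against EV was known from these same isoform libraries. For these genes the p-values are therefore not independent of the choice.

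ATF3 was higher in TBX3iso2 than in TBX3iso1, by 1.89 ± 0.26 on the log2 scale (limma adjusted p = 0.00443), with both TBX3iso2 libraries above both of TBX3iso1. Without TBX3iso2 replicate 1 the difference in ATF3 was 1.41, and it was still called. VLDLR was lower in TBX3iso2 by a log2 difference of -1.32 (95% confidence interval -1.64 to -0.99, limma adjusted p = 0.00148), again without overlap. NUPR1 was lower in TBX3iso2 by -1.05 (-1.65 to -0.46, limma adjusted p = 0.0328). The NUPR1 call was lost without either EV library, without TBX3iso1 replicate 2 (-0.75) and without TBX3iso2 replicate 2 (-0.76), and its level in TBX3iso2 is under 0.5 RPKM. It was also lost with 1 RPKM added, with no filter and in a fit of these lines alone, and over the alternatives that could fit NUPR1 the limma adjusted p ran from 0.00943 to 0.123.

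A further 9 members had an adjusted p under 0.05 between the isoforms at less than 1.5-fold. The share of all genes that pass on adjusted p alone was not counted, so this number has no background to be read against. In 4 of the 9 TBX3iso1 was lower than EV with TBX3iso2 nearer to it. ASNS was higher in TBX3iso2 by 0.38 (0.19 to 0.57, limma adjusted p = 0.0214), MTHFD2 by 0.36 (limma adjusted p = 0.0193), PSPH by 0.35 (limma adjusted p = 0.028) and AARS by 0.28 (0.12 to 0.44, limma adjusted p = 0.0308). In these 4 genes TBX3iso2 lay between the other lines or overlapped EV. LARS at 0.27 and PSAT1 at 0.26 were also higher in TBX3iso2, and TBX3iso1 differed from EV by -0.03 and 0.01 there. SHMT2 at -0.32, TARS at -0.35 (limma adjusted p = 0.0158) and DDIT4 at -0.48 (-0.72 to -0.25, limma adjusted p = 0.0201) were lower in TBX3iso2.

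GDF15 was 2.57 and 2.96 RPKM in TBX3iso1 and 3.08 and 4.06 in TBX3iso2, a log2 difference of 0.35 (0.01 to 0.68) that did not pass (limma adjusted p = 0.149). For ATF4 the difference was -0.03 (-0.24 to 0.17), for DDIT3 -0.14 (-0.41 to 0.13), for CEBPB 0.08 (-0.09 to 0.26) and for CHAC1 -0.04 (-0.31 to 0.23). These intervals lie inside a 1.5-fold change either way, whereas that of GDF15 reaches past it.

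**Figure D5:**
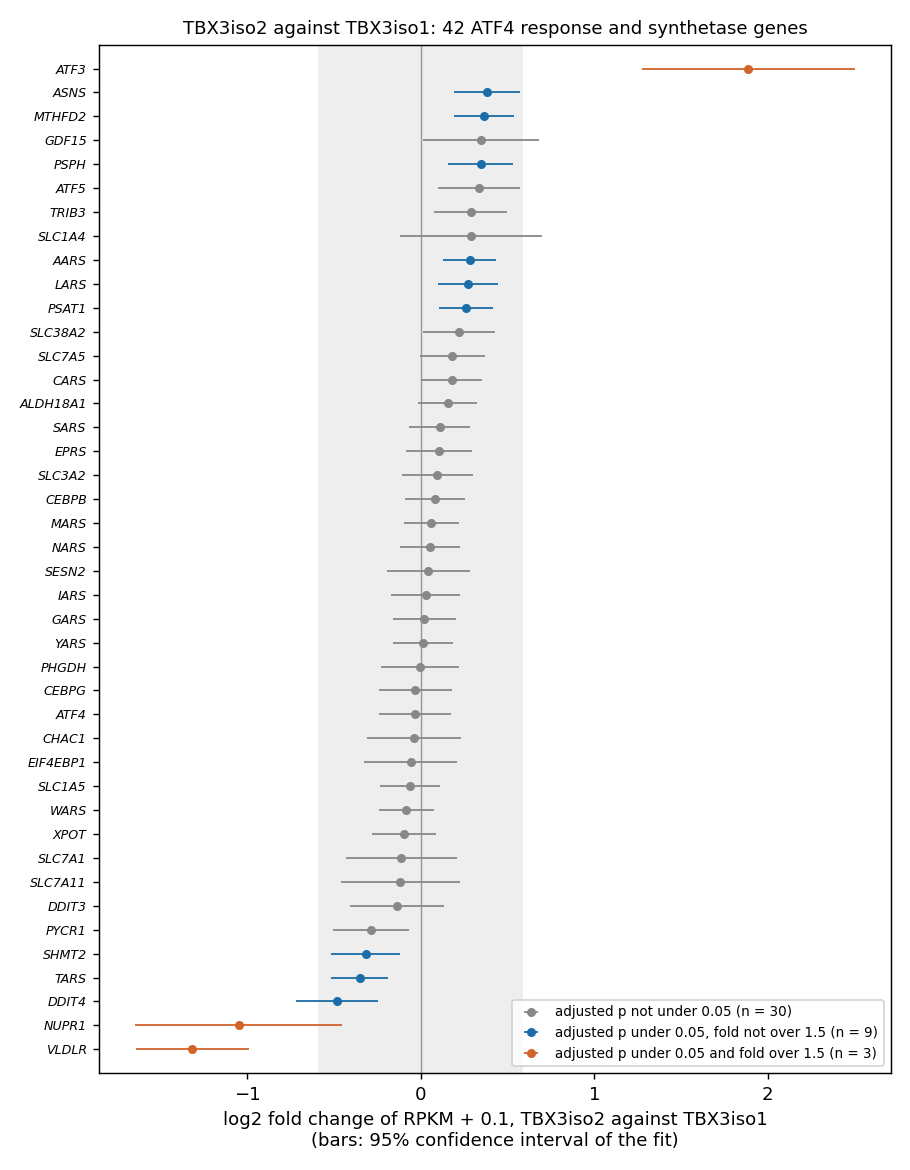
Log2 fold change of RPKM + 0.1 in TBX3iso2 against TBX3iso1 for each of the 42 genes, ordered by size, with the 95% confidence interval of the fit; the grey band spans a 1.5-fold change. ATF3 (1.89) lies above the band and NUPR1 (-1.05) and VLDLR (-1.32) below it, and 9 further genes have an adjusted p under 0.05 inside the band.

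The surrounding pathway was read from lists of genes outside the 42. Other reported ATF4 targets were read in a list also written with earlier results known. Of 19 listed, 17 were tested, and 8 were called lower and none higher with TBX3iso1, against 8 lower and 1 higher with TBX3iso2. That is 47.1% lower in each, beside 14.1% and 12.3% of all genes. Their medians were -0.49 and -0.54. KLHL24 was lowest, at 1.86 and 2.22 RPKM in EV, 0.428 and 0.475 in TBX3iso1 and 0.299 and 0.372 in TBX3iso2. BBC3, which encodes the pro-apoptotic protein PUMA, was 10.1 and 10.6 RPKM in EV, 4.14 and 4.21 in TBX3iso1 and 4.85 and 4.28 in TBX3iso2. Of CBS and CTH, which turn homocysteine into cysteine, CBS alone was called between the isoform lines. CTH was lower with both, at -1.12 ± 0.15 and -1.15 ± 0.15. CBS was 14.3 and 13.6 RPKM in EV, 6.10 and 5.47 in TBX3iso1 and 12.2 and 13.7 in TBX3iso2. The difference between the isoforms was 1.15 ± 0.09, and CBS was the only gene of the 17 called there. That is 5.88% of the list, against 6.29% of all genes tested. TNFRSF10B, a death receptor and known CHOP target, was higher with TBX3iso2 at 0.69 ± 0.09.

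Upstream of ATF4, none of the 14 tested genes for eIF2α kinases, their regulators, eIF2α phosphatase subunits and eIF2B was called with either isoform. Of all genes tested 21.5% were called with TBX3iso1 and 21.2% with TBX3iso2. The medians of the 14 were -0.00394 and -0.02. PPP1R15A, an eIF2α phosphatase subunit, was 40.5 and 43.5 RPKM in EV, 26.8 and 29.3 in TBX3iso1 and 43.9 and 37.3 in TBX3iso2. At -0.58 ± 0.10 with TBX3iso1 it fell just short of the fold threshold, and it was -0.05 ± 0.10 with TBX3iso2. By limma 3 of the 14 had an adjusted p under 0.05 with TBX3iso1 and 5 with TBX3iso2 when the fold was left aside. At an unadjusted p under 0.05 there were 6 in each. The share of all genes at these looser thresholds was not counted. Of 18 genes of the ATF6 and XBP1 branches of the unfolded protein response, 2 were called lower with TBX3iso1 and 3 with TBX3iso2, and none higher, with medians of -0.10 and -0.26. These are 11.1% and 16.7% of the list, near the 14.1% and 12.3% of all genes called lower. HERPUD1, which acts in degradation of misfolded proteins, was 29.6 and 30.6 RPKM in EV, 17.4 and 19.1 in TBX3iso1 and 13.9 and 15.1 in TBX3iso2. ERN1, the sensor IRE1α, was lower by -1.32 ± 0.33 and -0.98 ± 0.33, and XBP1 was called with TBX3iso2 at -0.59 ± 0.08. Among 8 tested enzymes of one-carbon and glycine metabolism outside the members, SHMT1 was called lower with TBX3iso1, at -0.64 ± 0.08, and MTHFD2L was called higher with TBX3iso2, at 0.80 ± 0.12, with medians of 0.00216 and 0.18 over the list.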

How the data were processed

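Libraries of polyadenylated RNA that keep the strand were sequenced from both ends on an Illumina HiSeq by the authors, who mapped the reads to hg19 using TopHat within Galaxy, with several alignments allowed per read. The values they deposited are RPKM from Partek Genomics Suite, on a linear scale, for 20824 genes, together with the alignments of each library. Versions, gene annotation and the use of strand in counting are not given in the sources used here.

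A pseudocount of 0.1 RPKM was added before log2 was taken. limma 3.58.1 in R 4.3.3 was fitted to the 12805 genes whose mean reached 0.5 RPKM, with 1 mean per line over the 6 libraries and a trended prior on the variance, and p-values were adjusted by Benjamini-Hochberg across these genes. Calls needed an adjusted p under 0.05 together with more than 1.5-fold change, as in the study's methods. The fit was also run on simulated data, but the outcome is not given here and is not used as support. With 2 libraries per line, permuting libraries cannot reach 0.05 and was not used. As no read counts per gene were analysed, the spread between libraries stands for the precision of a value. A fold change on the log2(RPKM + 0.1) scale understates the change of low genes.

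The members, gene lists and tests were chosen with earlier results of these data known. Values in every library are given for ATF4, ATF3, DDIT3, ASNS, GDF15, AARS and the 17 members called in at least 1 comparison, and the others mostly by ranges. Values were added for GARS, SLC7A5, PHGDH and a few further members after they had been seen. Gene positions are from GENCODE v44 on GRCh37, and promoter sequences are from RefSeq on GRCh38.p14. Alternatives were other pseudocounts, filters, scalings, a fit on the 2 lines compared, a replicate block, no trend and leaving out each library.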

Additional observations from a re-analysis of the deposited data

Results flagged for a closer look

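Of the 42 members 3 (7.14%, against 6.29% of all genes) differed between the isoform lines by the test of the difference itself, TBX3iso2 against TBX3iso1 in limma with Benjamini-Hochberg adjustment over all genes tested. ATF3 differed by 1.89 on the log2 scale, with 14.5 and 7.46 RPKM in TBX3iso2 against 2.64 and 2.84 in TBX3iso1 and higher in 2 of 2 libraries. NUPR1 differed by -1.05, with 0.480 and 0.286 RPKM against 0.698 and 1.11, and this call was lost in 7 of 14 alternatives. VLDLR differed by -1.32, with 0.970 and 1.13 RPKM against 2.75 and 2.78, and it was called higher than EV in TBX3iso1 and not called in TBX3iso2. With 2 libraries per line no library could be tested for standing apart within its line.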

How the results depend on the processing

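No member changed direction across a threshold under the 15 alternatives. For TBX3iso1 against EV the median of the members was -0.16 with 1 RPKM added, -0.20 with 0.01 RPKM added, -0.17 with a filter at 2 RPKM, -0.11 under median-ratio scaling and -0.22 under quantile normalization. For TBX3iso2 against EV it was -0.24 under quantile normalization. Between the isoforms it was -0.00226 under median-ratio scaling, and 1 member was called with the filter at 2 RPKM, which removes VLDLR and NUPR1.

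Leaving out 1 library at a time gave 15 to 17 members called and medians of -0.21 to -0.17 with TBX3iso1, 11 to 14 and -0.20 to -0.12 with TBX3iso2, and 2 to 3 and 0.05 to 0.07 between the isoforms. In these fits the lone library of a line is assumed to vary like the others. Of single calls, PSPH and MTHFD2 with TBX3iso1, SESN2 and SLC7A11 with TBX3iso2 and NUPR1 between the isoforms were lost under at least 1 alternative. SESN2 was -0.58 with 1 RPKM added. Calls were gained by AARS (-0.65), TRIB3 (-0.64) and PHGDH (-0.60) with TBX3iso2 under quantile normalization and by SLC7A5 (-0.74) with TBX3iso1. Leaving out a library also gained PHGDH (-0.61 without TBX3iso2 replicate 2), SLC7A5 (-0.61 without EV replicate 2 and -0.63 without TBX3iso1 replicate 1) and EIF4EBP1 (0.65 without TBX3iso1 replicate 1). EIF4EBP1 (0.60 under median-ratio scaling) and ATF5 (0.63 without EV replicate 1) were gained with TBX3iso1, and DDIT4 (-0.60 without TBX3iso2 replicate 2) between the isoforms. With 1 RPKM added, 1812 genes in all were called with TBX3iso1 and 419 between the isoforms, and 504 were called between the isoforms with the filter at 2 RPKM. The cause of these changes was not tested.

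Nothing in the labels ties libraries with the same replicate number to a shared culture or day. The deviations of libraries with the same number correlated at 0.220 between EV and TBX3iso1, 0.114 between EV and TBX3iso2 and 0.499 between the isoforms, over genes. With the replicate block 15, 12 and 3 members were called in the 3 comparisons, the same genes as without it.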
